A study of Mus musculus with 2 samples.

Results

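CD8 T cells were picked out of the CD45-enriched cells of mouse tumours, sequenced in droplets as 2 libraries: CEP, after cepharanthine, and Vehicle, its control. A barcode counted as a CD8 T cell if it had at least 200 genes, at most 15% mitochondrial UMIs, at least 2 UMIs over Cd3d, Cd3e and Cd3g, at least 1 UMI over Cd8a and Cd8b1, no UMI of Foxp3 or Trdc, at most 3 UMIs over C1qa, C1qb and C1qc, and fewer than 5 UMIs over Krt8 and Krt18. A UMI (unique molecular identifier) stands for 1 captured RNA molecule. These limits found 44 cells among 9544 kept CEP barcodes and 71 among 9932 kept Vehicle barcodes, 115 of 19476 in all. The cells were selected on measured UMIs of the genes named in these limits, so the levels of those genes are a description and no finding.

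Cepharanthine is a plant alkaloid, and the series title ties it to protein kinase C zeta, NF-kB and PARP1 in solid tumours and to immunotherapy. Per the labels the source of both libraries was tumour tissue, dissociated with collagenase D and DNase I and enriched for CD45, the surface protein shared by white blood cells. The tumour model, mouse strain, sex, age, dose and schedule are not given in the sources used here. Although the design speaks of 5 biological replicates, the cells of each group came as 1 library with nothing to show which animal a cell is from. Each group is therefore 1 sample, no test between the groups is possible, and every interval below is a 95% interval that covers counting error only.

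CD8 T cells recognise peptides on MHC class I through a receptor of rearranged alpha and beta chains and kill target cells by releasing perforin and granzymes, proteases stored in granules. Naive and memory cells depend on factors such as TCF1 (Tcf7) and KLF2. Under lasting stimulation in tumours CD8 T cells carry inhibitory receptors such as PD-1 (Pdcd1) and pass into states called exhausted, with a TCF1-positive pool regarded as the source of the granzyme-bearing cells.

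The cells carried the markers of their label, but Cd8a and Cd8b1 were used by the limits, so their values describe the selection and are no evidence for it. Cd8b1 was detected in 41 of 44 CEP and Cd8a in 36 of 44, and UMIs of both were found in 33 CEP cells and 55 of 71 Vehicle cells. Nkg7, a granule membrane protein of killer lymphocytes that the limits did not use, had UMIs in 42 CEP and 61 Vehicle cells, against 1.16% and 0.654% of macrophages (barcodes with at least 10 C1q UMIs and no Cd3 UMI). A T cell receptor V segment had UMIs in 40 of 44 CEP cells (90.9%) and 63 of 71 Vehicle cells (88.7%), against 0.223% and 0.266% of macrophages. Cd4 and the natural killer receptor genes Ncr1 and Klrb1c had 0 UMIs in all 44 and all 71 cells, which allows shares of cells with a UMI of up to 6.82% and 4.23% if the limit of a 0 is set at 3 cells, and of up to 8.04% and 5.06% by the exact interval.

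RNA of other cell types was present in the members. The macrophage gene Lyz2 had UMIs in 43.2% of CEP and 46.5% of Vehicle members, against 99.4% and 99.6% of macrophages. The macrophage markers summed to 2271 and 1947 CPM (UMIs of a gene over all UMIs of the summed cells, times 1000000), the neutrophil markers to 1666 and 1156, and the dendritic cell markers to 905 and 1863. B cell markers summed to 2.83 and 23.9 CPM, epithelial markers to 5.66 and 4.78, stromal markers to 31.1 and 16.7, mast cell markers to 5.66 and 0, and red cell markers to 0 in both. Free RNA, or a myeloid cell caught in the same droplet, cannot be told apart here from expression by the T cell, and its part in the results below was not tested. Members with no UMI of C1qa, C1qb, C1qc, Lyz2, S100a8 or S100a9 numbered 9 in CEP and 19 in Vehicle.

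The CEP members were deeper: the median was 5638 UMIs and 2056 genes per cell, against 3767 UMIs and 1501 genes in Vehicle, and the sums were 353603 and 418691 UMIs. Depth ran from 894 to 29581 UMIs in CEP and from 814 to 28151 in Vehicle, and the 3 deepest cells held 22.0% of the CEP and 15.4% of the Vehicle UMIs. Macrophages were deeper than either, at medians of 9952 and 11187 UMIs. The libraries shared 136 barcodes, and 3 CEP members had a barcode that was also present in the Vehicle library, where none was a member.

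Just inside the C1q limit, with 3 C1q UMIs, lay 7 CEP and 13 Vehicle cells, with median depths of 7855 and 8027 UMIs. Just outside it, with 4 or 5 C1q UMIs, lay 4 CEP and 14 Vehicle cells, at medians of 7113 and 8988.5 UMIs. Lyz2 had a median of 2 UMIs in the inside cells of either library, and 7 (CEP) and 1 (Vehicle) in the outside cells. All cells that met every limit but that on C1q numbered 58 in CEP and 107 in Vehicle, more than the members themselves, with medians of 12531.5 and 12894 UMIs and Lyz2 UMIs in 58 and 104 of them. Of these cells 49 and 93 carried a V segment. Their values are set beside the member values below, a comparison chosen after the member values were seen.

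CD8 T cells made up a smaller share of the CEP library and a like share of its T cells. They were 0.461% (0.335% to 0.618%) of the kept CEP barcodes and 0.715% (0.559% to 0.901%) of the kept Vehicle barcodes, a ratio of 0.645 (0.443 to 0.938). Among T cells found by the same Cd3, C1q and keratin limits they were 44 of 184, or 23.9% (17.9% to 30.7%), and 71 of 307, or 23.1% (18.5% to 28.3%), a ratio of 1.03. The lower share was therefore shared with T cells as a whole. Over barcodes with low keratin counts, 8564 and 9774, the ratio was 0.707 (0.486 to 1.03), an interval that includes 1. In a further setting barcodes with at least 1000 UMIs were thinned to 1000, and members had to meet the Cd3 and Cd8 limits again. The limits on C1q, keratin, Foxp3 and Trdc stayed on the counts as deposited. By this setting 17 of 8779 CEP and 44 of 9220 Vehicle barcodes were left (0.194% and 0.477%), a ratio of 0.406. The order was thus the same with the Cd3 and Cd8 limits at equal depth, with a larger gap. A share with the C1q limit at equal depth was not computed.

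Gene levels were compared as the ratio of CPM, CEP over Vehicle, over 3529 genes with at least 30 UMIs in the 115 cells. At least 1.5-fold higher in CEP were 365 genes (10.3%) and at least 1.5-fold lower 296 (8.39%), with a median log2 ratio of 0.00 over all genes tested. Both shares are the background for the list counts of CEP against Vehicle below. The counting interval excluded 1 for 191 of the higher and 128 of the lower genes. A further check subtracted from each gene's sum, in each library, the UMIs of the cell with most of them (the top cell), keeping the library total, and another averaged the CPM of single cells so that each cell weighed the same; 129 of the higher and 87 of the lower genes kept to their side of 1.5-fold, with an interval that excluded 1, under both. A single cell held more than 50% of the UMIs of a gene for 39 of the higher and 7 of the lower genes.

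Among the largest differences were those of granzymes of 1 gene cluster. In the mouse, Gzmb, Gzmc, Gzmd, Gzme, Gzmf and Gzmg lie within 1 cluster on the minus strand of chromosome 14 (GENCODE M21, GRCm38). Gzmb, which encodes granzyme B, the main caspase-cleaving granzyme, spans chr14:56258838-56262260, Gzmc spans chr14:56231441-56234656, Gzmf chr14:56205263-56211417 and Gzmd chr14:56129556-56132608. The promoters of Gzmb, Gzmc, Gzmf and Gzmd, from 250 bases before to 50 after the annotated start, are shown because the levels of the last 3 differed between the groups in the opposite direction to Gzmb (RefSeq, GRCm38.p6, minus strand, 5′ to 3′). Capitals mark matches on either strand to the cyclic AMP response element TGACGTCA, the AP-1 motif TGANTCA, the RUNX motif TGTGGT and an NF-kB motif of GGG, any 5 bases and CC.
Gzmb, chr14:56262285-56262584: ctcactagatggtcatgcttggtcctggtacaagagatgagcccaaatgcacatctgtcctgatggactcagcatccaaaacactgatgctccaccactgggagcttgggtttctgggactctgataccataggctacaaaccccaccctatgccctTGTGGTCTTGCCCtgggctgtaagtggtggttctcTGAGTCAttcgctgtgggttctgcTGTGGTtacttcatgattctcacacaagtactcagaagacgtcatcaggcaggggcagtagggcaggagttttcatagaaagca
Gzmc, chr14:56234608-56234907: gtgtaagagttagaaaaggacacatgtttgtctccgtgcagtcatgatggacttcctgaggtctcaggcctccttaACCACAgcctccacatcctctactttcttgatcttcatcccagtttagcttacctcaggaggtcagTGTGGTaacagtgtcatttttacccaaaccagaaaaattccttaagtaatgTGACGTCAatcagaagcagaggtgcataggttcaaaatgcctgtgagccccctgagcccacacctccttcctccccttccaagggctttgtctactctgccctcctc
Gzmf, chr14:56211358-56211657: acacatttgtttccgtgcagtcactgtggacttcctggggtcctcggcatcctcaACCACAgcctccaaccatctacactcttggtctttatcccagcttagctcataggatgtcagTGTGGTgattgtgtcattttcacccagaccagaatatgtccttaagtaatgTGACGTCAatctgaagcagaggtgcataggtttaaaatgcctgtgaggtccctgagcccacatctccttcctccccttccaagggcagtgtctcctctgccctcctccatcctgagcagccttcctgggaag
Gzmd, chr14:56132544-56132843: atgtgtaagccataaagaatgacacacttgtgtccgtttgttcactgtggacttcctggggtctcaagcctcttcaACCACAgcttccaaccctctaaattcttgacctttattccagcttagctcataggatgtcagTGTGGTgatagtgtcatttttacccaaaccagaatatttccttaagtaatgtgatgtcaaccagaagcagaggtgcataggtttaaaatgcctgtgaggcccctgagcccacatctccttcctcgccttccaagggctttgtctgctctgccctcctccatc

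The 6 promoters differed in the motifs they held. The element TGACGTCA was present in Gzmc at position -57 from the annotated start, in Gzmf at -82 and in Gzmg at -77, and in 1.79% of 32851 promoters of the same length. No match to those letters lay in the windows of Gzmb, Gzmd or Gzme. Each of the 6 windows held 2 matches to TGTGGT, a motif found in 16.8% of all promoters. TGANTCA (position -58; 7.81% of promoters) and the NF-kB motif (position -90; 50.8% of promoters, overlapping a RUNX match) were found in Gzmb and in none of the other 5 windows. The Gzmd and Gzme windows were 93.4% identical, Gzmf and Gzmg 85.2%, and Gzmb and Gzmc 50.4%. Gzmc was 84.0% identical to Gzme and 83.5% to Gzmd, which lack TGACGTCA, and 77.4% to Gzmg and 75.1% to Gzmf, which hold it.

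Granzymes C to G were higher in CEP CD8 T cells, while granzymes A and B and perforin were not. Gzmc, whose product is a granule protease of mouse killer cells, had 1167 UMIs in CEP and 173 in Vehicle, or 3300 and 413 CPM, a log2 ratio of 2.99 (2.77 to 3.24). Gzmc was found in 15 of 44 CEP cells, 34.1% (20.5% to 49.9%), and in 14 of 71 Vehicle cells, 19.7% (11.2% to 30.9%). The share of positive cells was thus higher in CEP with overlapping intervals, and the positive cells also held more of it. The cell with most held 46.6% and 23.1% of the sums. Without those cells the log2 ratio was 2.47.

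Gzmd was at 1315 CPM in CEP and 115 in Vehicle, for a log2 ratio of 3.51 (3.09 to 3.98), from 8 and 6 cells. The top cells held 63.0% and 27.1% of it, and without them the log2 ratio was 2.52. Gzmf stood at 3148 and 760 CPM, a log2 ratio of 2.05 (1.87 to 2.24), from 9 and 13 cells, and 1.32 without the top cells. The other members of the cluster pointed the same way.

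Gzme reached 461 CPM in CEP and 62.1 in Vehicle, for a log2 ratio of 2.87 (2.29 to 3.55), from 8 and 4 cells. Gzmg reached 189 and 26.3 CPM, a log2 ratio of 2.80, from 5 and 2 cells. Because these genes are near copies, reads can be lost or shared between them: 95.9% of the 50-base stretches of Gzmc occurred in no other gene of the 6, against 78.5% for Gzmd, 80.9% for Gzme, 92.6% for Gzmf and 84.8% for Gzmg, so the split between Gzmd, Gzme and Gzmg is uncertain. Summed over the 5 genes there were 2975 UMIs in CEP and 576 in Vehicle, of which 1 cell held 51.6% and 17.9%.

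Cells with any UMI of granzymes C to G numbered 17 of 44 (38.6%) and 18 of 71 (25.4%). They were deeper than the rest, at medians of 8852 and 10274.5 UMIs against 4028 and 3030. Of the 17 and 18 cells, 15 and 17 also had Gzmb, and 0 had a UMI of Tcf7. All 5 genes were found together in 4 CEP and 2 Vehicle cells. At 1000 UMIs per cell Gzmc was detected in 28.6% of CEP and 11.9% of Vehicle cells, and in 0.468% and 0.225% of macrophages as deposited.

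Gzmb itself was at 2288 CPM in CEP and 3007 in Vehicle, for a log2 ratio of -0.39 (-0.52 to -0.27), in 25 and 41 cells. At 1000 UMIs per cell the shares with Gzmb were 42.9% and 41.8%. Gzma, which encodes a tryptase, stood at 1193 and 1395 CPM (log2 -0.22), but 1 Vehicle cell held 60.8% of the Vehicle UMIs and the log2 ratio without the top cells was 0.59. Prf1, the perforin gene, gave a log2 ratio of -0.21 in 15 and 25 cells, and Nkg7 stood at 1852 and 2245 CPM (log2 -0.28). Of the list of 20 cytotoxic genes, 19 were tested, 5 were at least 1.5-fold higher, all of them Gzmc to Gzmg, and 0 lower. Over all genes 10.3% were higher and 8.39% lower. The list had a median log2 ratio of 0.03.

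**Figure D1:**
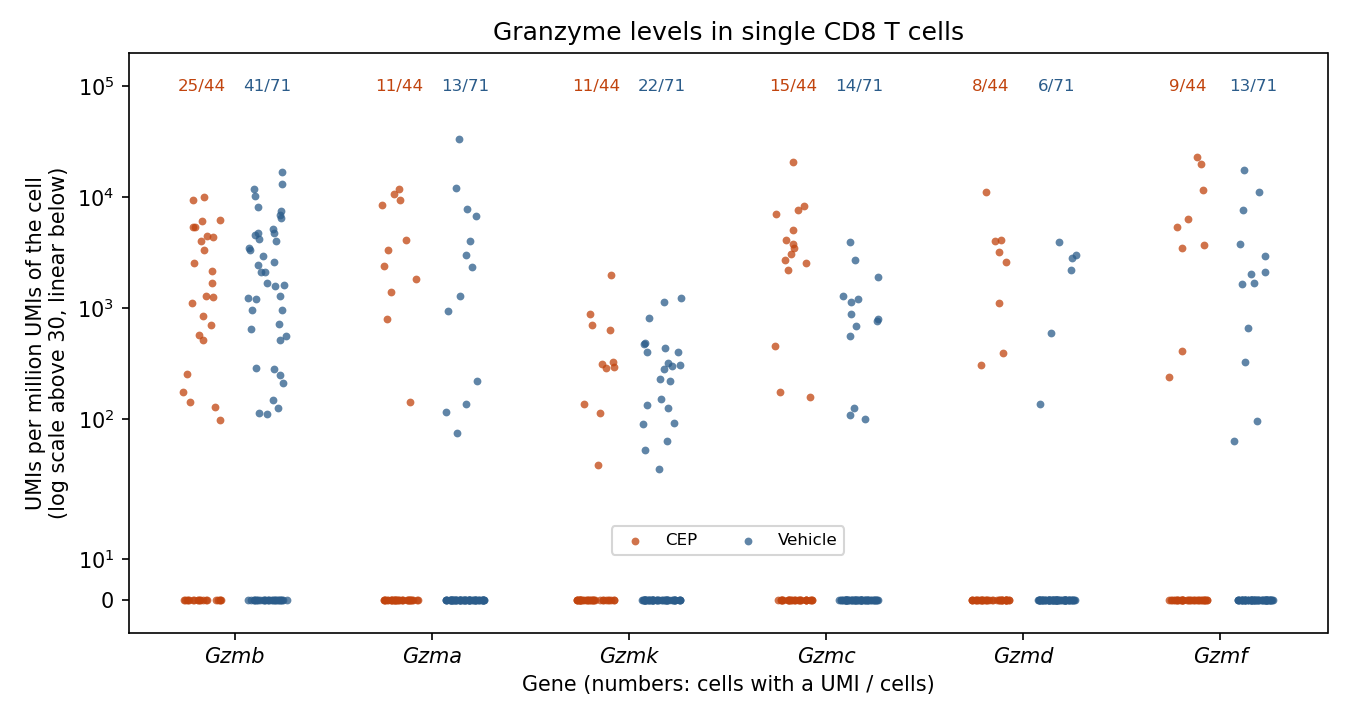
UMIs scaled to a total of 1000000 UMIs per cell (log scale above 30, linear below) of 6 granzymes in each of the 44 CEP and 71 Vehicle CD8 T cells, 1 point per cell, with the number of cells with a UMI above. Among positive cells the median for Gzmc is 3448 in CEP (15 cells) and 844 in Vehicle (14 cells), with 6 of the 15 above the highest Vehicle cell, and for Gzmb 1681 (25 cells) and 2111 (41 cells).

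The granzyme difference was not seen among the 58 CEP and 107 Vehicle cells kept out by the C1q limit alone. There Gzmc was at 401 and 383 CPM (log2 0.07), in 19.0% and 20.6% of cells. Gzmd was at 179 and 539 CPM (log2 -1.59) and Gzmf at 672 and 1068 CPM (log2 -0.67), and 1 cell held 68.9% of the CEP and 71.0% of the Vehicle Gzmd UMIs. Gzmb was at 829 and 778 CPM (log2 0.09). Gzmd and Gzmf thus went the other way outside the limit, and Gzmc was level. Among the members with no myeloid UMI, on the other hand, granzymes C, D and F were again higher: the 9 CEP cells held 205 Gzmc, 97 Gzmd and 230 Gzmf UMIs, and the 19 Vehicle cells 38, 15 and 72, with log2 ratios of CPM of 2.83, 3.06 and 2.08. These sums come from few cells: 5 CEP and 4 Vehicle cells for Gzmc, 3 and 2 for Gzmd, and 3 and 5 for Gzmf. The cell with most held 33.2% and 39.5% of Gzmc, 58.8% and 86.7% of Gzmd, and 77.0% and 51.4% of Gzmf. Without those cells 137 and 23 Gzmc UMIs were left (log2 2.96), 40 and 2 of Gzmd, and 53 and 35 of Gzmf, so Gzmc kept the size of its difference and Gzmf lost much of it.

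Natural killer cells (Ncr1 UMIs and at most 1 Cd3 UMI, 27 CEP and 19 Vehicle cells) also carried Gzmc, at 4426 CPM in CEP and 14303 in Vehicle. Gzmd was at 642 and 2376 CPM in them, with 85.6% of the Vehicle UMIs in 1 cell, and Gzmf at 1161 and 0 CPM, with 96.5% of the CEP UMIs in 1 cell. The order of the groups in natural killer cells was thus the reverse of that in CD8 T cells for Gzmc and Gzmd and the same for Gzmf. T cells with no Cd8 UMI held Gzmc at 5.46 and 11.7 CPM and no UMI of Gzmd to Gzmg, and T cells with Foxp3 UMIs held none of Gzmc to Gzmg.

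Among cytokines and chemokines the list median was not stable, and 2 genes differed in opposite directions. Ifng, which encodes interferon-gamma, was at 133 CPM in CEP and 334 in Vehicle, for a log2 ratio of -1.32 (-1.84 to -0.84), in 12 of 44 and 25 of 71 cells. Without the top cells the log2 ratio was -1.19, and by the mean of single cells -1.70. However, 2 Vehicle cells held 42 and 39 of the 140 Vehicle UMIs, and the 2 CEP cells with most 11 and 9 of 47. Leaving out 1 cell per library keeps the second of them, and the mean of single cells keeps both. In the cells beyond the C1q limit Ifng was also lower, at 54.2 and 110 CPM (log2 -1.01), in 12 of 58 and 35 of 107 cells. In the members with no myeloid UMI there were 7 Ifng UMIs in CEP and 48 in Vehicle, but 1 Vehicle cell held 42 of the 48, and without the top cell of each library 3 and 6 UMIs were left, too few to show a direction. Ifng was thus lower in CEP on both sides of the C1q limit, and the members with no myeloid UMI gave no value that did not rest on 1 cell.

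Xcl1, which encodes a chemokine for cross-presenting dendritic cells, was at 399 and 62.1 CPM, a log2 ratio of 2.66 (2.07 to 3.35), in 9 and 7 cells, and 2.45 without the top cells. Beyond the C1q limit it was at 58.3 and 83.5 CPM (log2 -0.51), so its direction was not shared there. In the members with no myeloid UMI the difference was not seen either, with 6 and 7 UMIs. Ccl5, a chemokine of effector and memory cells, was at 1123 and 1572 CPM (log2 -0.48), in 18 and 35 cells. Ltb, a lymphotoxin subunit, was at 543 and 482 CPM.

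The other high ratios in this list came from single cells. Csf2 was at 560 and 14.3 CPM, and 1 CEP cell held 97.0% of its CEP UMIs. Ccl4 was at 1360 and 425 CPM with 86.3% in 1 CEP cell, and its log2 ratio turned to -0.54 without the top cells. Tnf was at 178 and 28.7 CPM with 87.3% in 1 cell, and fell to a log2 ratio of 0.24 without it. Over the list, 10 of 15 genes were tested. At least 1.5-fold higher were 5 and lower 1, against 10.3% and 8.39% over all genes. The median log2 ratio of 0.69 became -0.07 without the top cells.

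**Figure D2:**
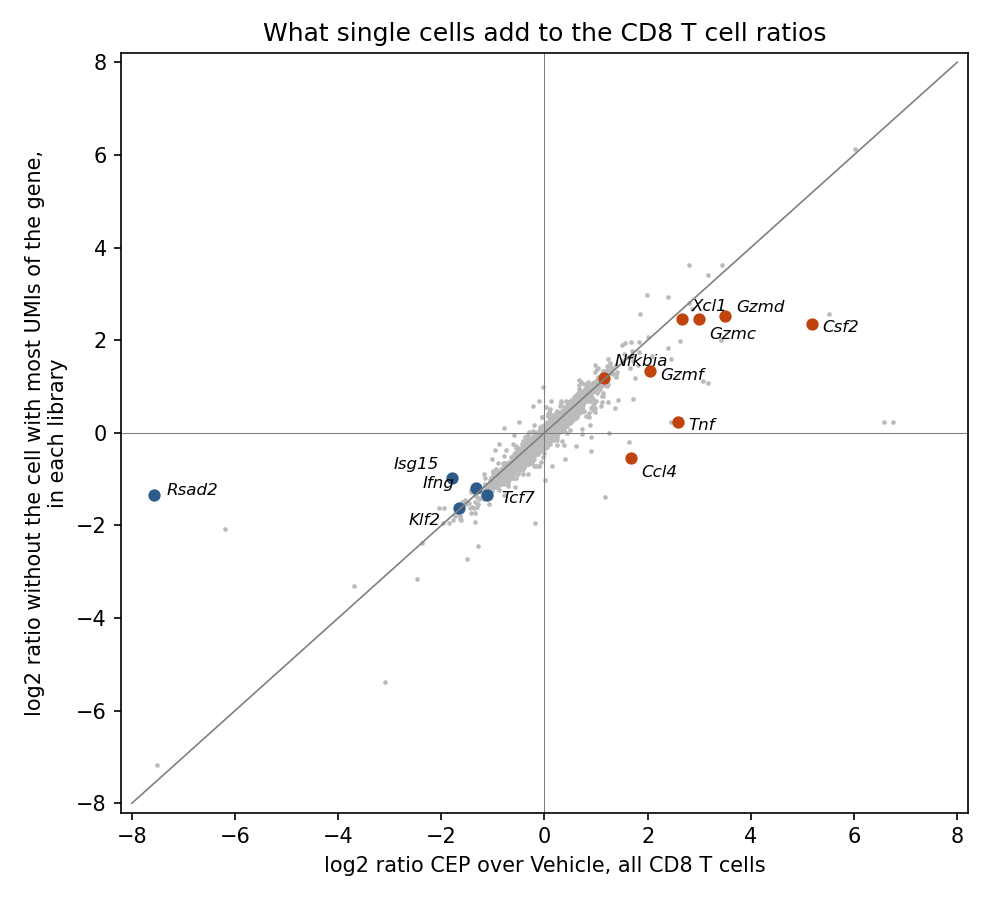
Log2 ratio of CPM, CEP over Vehicle, with all CD8 T cells (x axis) and without the cell that holds most UMIs of the gene in each library (y axis), 1 point per gene with at least 30 UMIs. Points on the diagonal do not depend on 1 cell, but can depend on 2. Gzmc moves from 2.99 to 2.47 and Ifng from -1.32 to -1.19, while Ccl4 crosses 0 to -0.54 and Tnf drops to 0.24. For Ifng 2 Vehicle cells held 42 and 39 of 140 Vehicle UMIs.

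Inhibitory receptors and exhaustion genes were present in both groups, and most of those tested stayed within 1.5-fold. Pdcd1, the gene of PD-1, was at 566 CPM in CEP and 394 in Vehicle, for a log2 ratio of 0.52 (0.22 to 0.83), in 27 of 44 and 40 of 71 cells, and in 0.156% and 0.204% of macrophages. Lag3 was at 141 and 203 CPM (log2 -0.52), and Havcr2, the gene of TIM-3, at 161 and 146 CPM (log2 0.15). Havcr2 had UMIs in 47.7% and 40.8% of members, against 38.7% and 44.6% of macrophages. Lag3 had UMIs in 56.8% and 46.5% of members, against 17.2% and 17.7% of macrophages. The part of macrophage RNA in the values of both was not tested. Tox, a transcription factor of exhausted cells, was at 42.4 and 40.6 CPM. None of these 4 passed 1.5-fold.

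Entpd1, which encodes the ectonucleotidase CD39, was at 156 CPM in CEP and 66.9 in Vehicle, for a log2 ratio of 1.21 (0.54 to 1.93), in 22 and 18 cells. It was detected in 44.0% and 50.5% of macrophages, and the part of their RNA in these values was not tested. Nr4a3, a factor induced by receptor signalling, was at 206 and 122 CPM, a log2 ratio of 0.76 (0.23 to 1.31). These 2 were the ones at least 1.5-fold higher among 15 of 18 list genes tested, and 0 were lower, against 10.3% and 8.39% over all genes. The list median was 0.15. Among costimulatory receptors Tnfrsf4 (OX40) was at 226 and 127 CPM (log2 0.83), and Tnfrsf9 (4-1BB) was at 848 and 764 CPM.

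Of the naive and memory genes 4 of the 7 tested were at least 1.5-fold lower in CEP and 2 higher, against 8.39% lower and 10.3% higher over all genes, with few UMIs behind each. Klf2, a factor of resting and recirculating T cells, was at 70.7 CPM in CEP and 227 in Vehicle, for a log2 ratio of -1.66 (-2.38 to -1.03), in 18 and 24 cells. Macrophages carry it too, with UMIs in 48.5% and 46.7% of them, while in the members with no myeloid UMI it had 3 UMIs in CEP and 22 in Vehicle. Bcl2, a survival gene, was at 59.4 and 153 CPM (log2 -1.34), and Ly6c2, a memory cell surface gene, at 56.6 and 134 CPM (log2 -1.22).

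Tcf7 was at 25.5 CPM in CEP and 57.3 in Vehicle, for a log2 ratio of -1.12 (-2.46 to -0.02). It had UMIs in 5 of 44 cells (11.4%) and 14 of 71 (19.7%), and at 1000 UMIs per cell in 4.76% and 8.96%, against 0.445% and 0.225% of macrophages as deposited. Beyond the C1q limit it was at 23.0 and 17.4 CPM (log2 0.42), so the direction was not shared there. Going the other way, Ccr7, the lymph node homing receptor, was at 235 and 129 CPM (log2 0.86) in 9 and 14 cells, and Il7r, the interleukin 7 receptor, at 204 and 112 CPM (log2 0.85). Ccr7 had 2 and 8 UMIs in the members with no myeloid UMI, so its direction was not shared by them. Only 7 of the 17 genes of this list had enough UMIs to be tested, and their median log2 ratio was -1.12.

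Within each library the cells with Gzmb and those with Tcf7 were largely different cells. Of the cells with Tcf7, 0 of 5 in CEP and 4 of 14 in Vehicle had Gzmb. Cells with Gzmb and no Tcf7 numbered 25 and 37, at median depths of 7855 and 5828 UMIs, and cells with Tcf7 and no Gzmb 5 and 10, at 4047 and 2128 UMIs. With these few and shallower Tcf7 cells, the values below describe the libraries and depend on depth.

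In CEP the Gzmb cells held Prf1 at 351 CPM and the Tcf7 cells 0, and in Vehicle at 445 and 0. Pdcd1 was at 631 against 95.7 CPM in CEP and 434 against 84.6 in Vehicle. Havcr2 was at 184 against 63.8 CPM in CEP and 184 against 28.2 in Vehicle. Over the whole lists, genes with a UMI in either kind of cell were counted. Higher in the Gzmb cells were 13 of 20 cytotoxic and 9 of 17 inhibitory genes in CEP, and 18 of 20 and 15 of 17 in Vehicle. The cytotoxic counts include Gzmb itself, whose side was set by the split and is no finding. The side of the inhibitory genes was thus mixed in CEP.

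The Tcf7 cells held more Ccr7, at 1340 CPM against 144 in CEP and 677 against 39.8 in Vehicle, but most of it was in few cells. In CEP 1 cell held 24 Ccr7 UMIs and another 17, and in Vehicle 1 cell held 18. The CEP cell with 17 also had 11 Lyz2 UMIs. The Vehicle cell had 63 Lyz2 UMIs and 16892 of the 35449 UMIs of its group. Klf2 was at 223 against 51.9 CPM in CEP and 1072 against 97.6 in Vehicle. Slamf6, a receptor of the TCF1-positive pool, had 5 UMIs in the Tcf7 cells and 0 in the Gzmb cells of CEP, and 2 and 1 in Vehicle, too few for a comparison. Ccl5 was also on this side, at 3700 against 703 CPM in CEP and 2398 against 1233 in Vehicle.

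Of the 15 CEP and 14 Vehicle cells with Gzmc, 14 and 14 also had Gzmb, and 14 and 14 had Pdcd1. Mki67, a gene of dividing cells, was found with Gzmc in 7 of 10 CEP and 4 of 15 Vehicle Mki67 cells. Gzma was found with Gzmc in 3 of 11 CEP and 6 of 13 Vehicle Gzma cells.

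Among effector lineage transcription factors, Zeb2, a factor of terminal effector cells that macrophages also express, was at 105 and 47.8 CPM, a log2 ratio of 1.12 (0.31 to 1.99). It had UMIs in 77.0% and 79.2% of macrophages. Runx3, which holds CD8 identity, was at 189 and 110 CPM (log2 0.78), but its log2 ratio was -0.55 at 1000 UMIs per cell. Id2, an inhibitor of DNA binding that marks effector cells, was at 404 and 568 CPM (log2 -0.49). Of 10 tested genes 2 were at least 1.5-fold higher and 0 lower, against 10.3% and 8.39% over all genes.

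Tissue and homing receptors gave no common direction. Cxcr6, a chemokine receptor of tumour-resident CD8 T cells, had UMIs in 22 of 44 CEP and 35 of 71 Vehicle cells, and the residency integrin gene Itgae in 1 and 1. Cd44, an adhesion receptor of activated cells, was at 192 and 95.5 CPM, and its log2 ratio turned to -1.04 at 1000 UMIs per cell. Among 9 tested residency genes 2 were at least 1.5-fold higher and 0 lower (Xcl1 is 1 of the 2). Among 9 tested trafficking genes 2 were higher and 1 lower, against 10.3% and 8.39% over all genes for both lists.

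Genes of cell division gave both directions. Mki67 was at 280 CPM in CEP and 162 in Vehicle, for a log2 ratio of 0.78 (0.33 to 1.25), in 10 of 44 and 15 of 71 cells. Ccna2, the cyclin A2 gene, was at 119 and 50.2 CPM (log2 1.23), Nusap1, a spindle gene, at 59.4 and 23.9 (log2 1.28), and Cenpf, a kinetochore gene, at 116 and 64.5 (log2 0.84). These 4 genes act late in the cycle or mark dividing cells.

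Lower were Mcm5, Pcna, Rrm2 and Mcm6. Mcm5, part of the replicative helicase, was at 59.4 and 124 CPM (log2 -1.04). Pcna, the sliding clamp, was at 122 and 193 CPM (log2 -0.66), and Rrm2, a ribonucleotide reductase subunit, at 79.2 and 131 CPM (log2 -0.72). Mcm6, another helicase subunit, had 29 and 52 UMIs (log2 -0.59). Top2a, a topoisomerase of dividing cells, was at 269 and 189 CPM (log2 0.51) in 16 and 16 cells. All 26 list genes were tested, 6 were at least 1.5-fold higher and 4 lower, against 10.3% and 8.39% over all genes. The list median was 0.30. Other replication genes stayed within 1.5-fold, among them Mcm7 with a log2 ratio of 0.30 and Rrm1 with -0.02, named after their values were seen. Mki67 was lower beyond the C1q limit, with a log2 ratio of -0.34.

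Interferon-induced genes were lower in CEP CD8 T cells, in part through 1 Vehicle cell, and by less under stricter limits on the members. Trim30a, an interferon-induced regulator, had 25.5 CPM in CEP and 81.2 CPM in Vehicle (log2 -1.62), in 6 and 17 cells. Zbp1, a sensor of nucleic acids, was at 48.1 and 97.9 CPM. Isg15, an interferon-induced ubiquitin-like protein, was at 158 and 552 CPM (log2 -1.79), and since 1 Vehicle cell held 63.6% of its Vehicle UMIs the log2 ratio was -0.97 without the top cells.

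Rsad2, the gene of viperin, had 0 UMIs in CEP and 112 in Vehicle, at least 31.5-fold lower against the 3 UMIs that a count of 0 allows. However, 99.1% of the Vehicle UMIs were in 1 cell, which also held 147 Isg15 UMIs. That cell, of 8756 UMIs, had 1 UMI of Cd8a, 0 of Cd8b1, no V segment UMI and 85 UMIs of the neutrophil marker S100a9. Ifit2, another interferon-induced gene, had 2 and 38 UMIs, in 2 and 7 cells. Ifi27l2a, the list gene with the highest level, was at 498 and 516 CPM. Of 11 tested genes of 24, 7 were at least 1.5-fold lower and 0 higher, against 8.39% and 10.3% over all genes. The list median was -0.78 over all members, -0.66 without the top cells and -1.20 at 1000 UMIs per cell. In members with a V segment UMI it was -0.35, with at least 2 Cd8 UMIs -0.33 and with at least 3 Cd3 UMIs -0.45. Each of these 3 settings left 8 genes to test. Interferon genes are also expressed by macrophages, where Isg15 was at 637 CPM in CEP and 736 in Vehicle with UMIs in 77.7% and 80.4% of cells. In the 9 and 19 members without myeloid UMIs Isg15 had 21 and 23 UMIs (log2 0.28), of which 1 CEP cell held 20, and too few genes of the list could be compared to give a median.

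Of the genes induced by interferon-gamma 2 of 11 tested were at least 1.5-fold lower and 0 higher, against 8.39% lower over all genes, and 10 of the 21 had too few UMIs. Gbp2, a guanylate-binding protein, was at 25.5 and 103 CPM (log2 -1.95), and Socs1, a feedback inhibitor of cytokine signalling, at 113 and 186 (log2 -0.71). The immunoproteasome genes Psmb8 and Psmb9 were at 1010 against 1158 and 673 against 647 CPM. The list median was -0.20.

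For the axis of the series title, 5 of 11 tested genes were at least 1.5-fold higher in CEP, against 10.3% over all genes. Among them Nfkb2 and Nfkbia had the highest ratios, and no difference in Parp1 was detectable. Parp1, which encodes a poly(ADP-ribose) polymerase (chr1:180568924-180601254), was at 76.4 CPM in CEP and 86.0 in Vehicle, for a log2 ratio of -0.16 (-0.95 to 0.59). That interval includes changes of over 1.5-fold in both directions, so such a change was not detectable at this depth. Prkcz, the gene of protein kinase C zeta, had 10 and 13 UMIs, too few to be tested, and Prkcq, the protein kinase C of T cells, gave a log2 ratio of -0.22.

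Nfkbia, which encodes the NF-kB inhibitor and target IkB-alpha (chr12:55489410-55492647), was at 1332 CPM in CEP and 597 in Vehicle, for a log2 ratio of 1.16 (0.93 to 1.38), in 34 of 44 and 54 of 71 cells. By the mean of single cells its log2 ratio was 0.85, and at 1000 UMIs per cell 0.54. In the members with no myeloid UMI it had 75 UMIs in CEP and 88 in Vehicle, a log2 ratio of 0.18, so the difference was smaller in the cells without detected myeloid RNA. Nfkb2 was at 93.3 and 40.6 CPM (log2 1.18, 0.32 to 2.14), Rela at 70.7 and 40.6 (log2 0.79, -0.15 to 1.78), Relb gave a log2 ratio of 0.60 (-0.48 to 1.73), and Nfkb1 was at 164 and 97.9 (log2 0.74), with the ratio of Nfkb1 turning to -0.29 by the mean of single cells. The intervals of Rela and Relb include 1-fold, and those of Nfkbia and Nfkb2 do not. The log2 ratio of Nfkb2 was -0.33 in the members with no myeloid UMI.

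The rest of the axis genes stayed within 1.5-fold. Rel gave a log2 ratio of 0.35, Nfkbib 0.46, Tnfaip3 0.06 and Ikbkb -0.05. Of 11 tested axis genes 5 were at least 1.5-fold higher and 0 lower, against 10.3% and 8.39% over all genes. The list median was 0.46, and 0.06 by the mean of single cells. It was -0.39 over the 3 genes that could be compared in the members with no myeloid UMI. Nfkbia is induced by tissue digestion as well as by signalling, and its level in macrophages was 471 CPM (CEP) and 397 CPM (Vehicle).

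**Figure D3:**
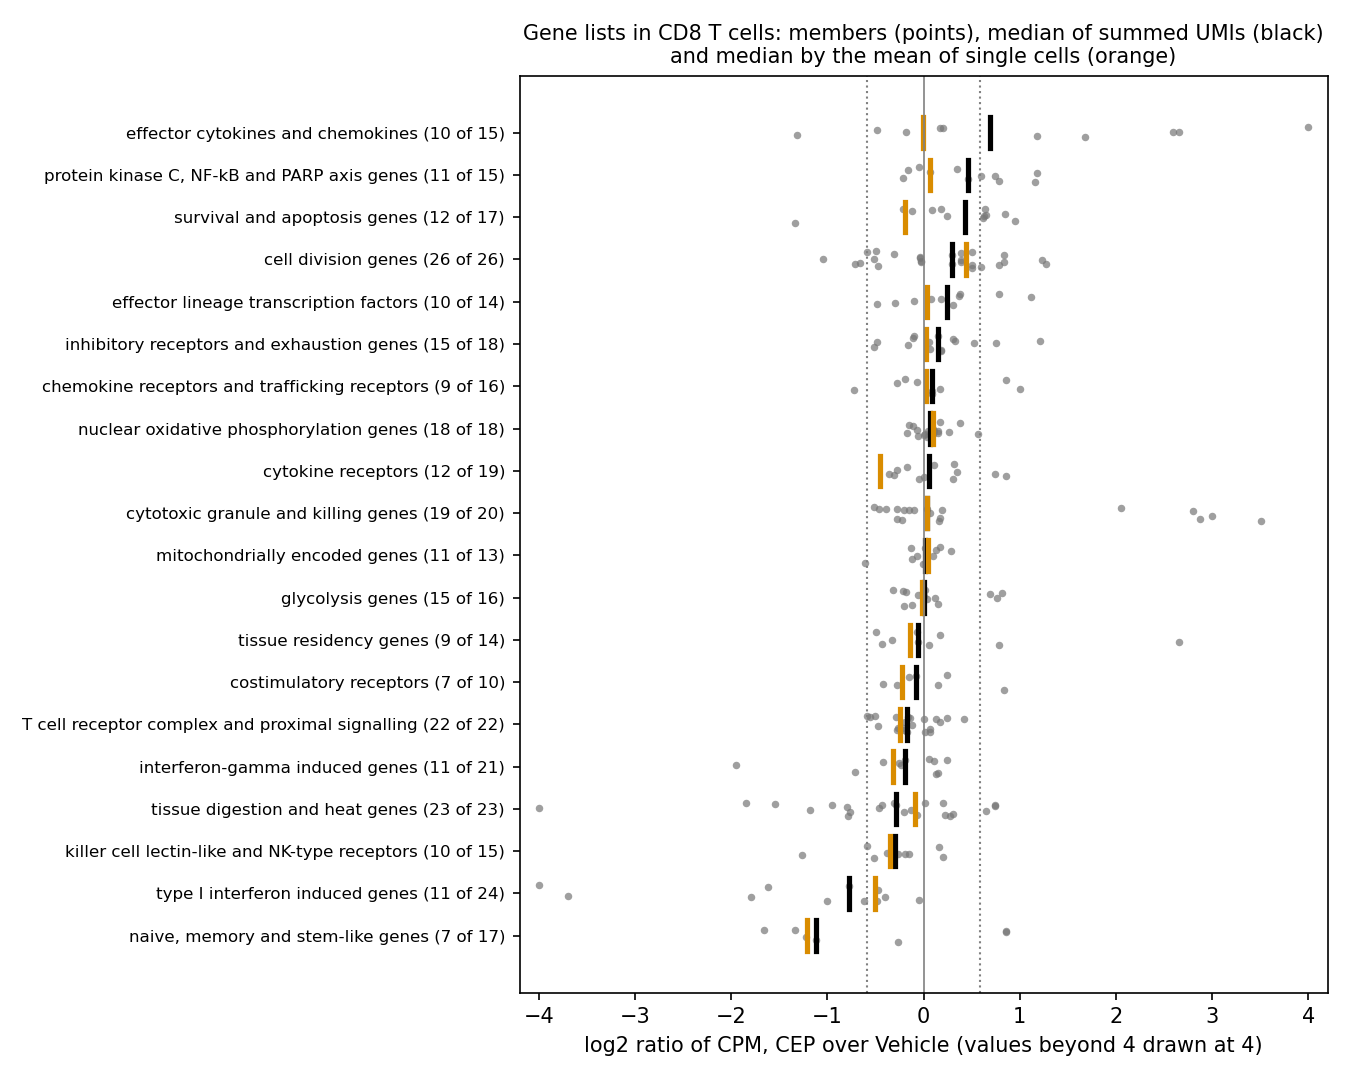
Log2 ratio of CPM, CEP over Vehicle, of the tested members (grey points) of the 20 gene lists in CD8 T cells, with the median from summed UMIs (black) and from the mean of single cells (orange) and dotted lines at 1.5-fold. The naive, memory and stem-like genes lie lowest by both medians (-1.12 and -1.21), and the effector cytokine median drops from 0.69 to 0.00 by the mean of single cells.

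Genes that respond to heat and tissue digestion went both ways. Hspa1a and Hspa1b, which encode the inducible HSP70 chaperones, were lower: Hspa1a was at 90.5 and 330 CPM (log2 -1.85) and Hspa1b at 102 and 301 CPM (log2 -1.55). In the members with no myeloid UMI the order was the reverse, with 8 and 4 UMIs of Hspa1a and 9 and 3 of Hspa1b. Jun, an immediate early gene, was at 96.2 and 220 CPM (log2 -1.18). Hspb1, a small chaperone, had 0 UMIs in CEP and 43 in Vehicle, at least 12.1-fold lower, with 95.3% in 1 Vehicle cell. Junb, another immediate early gene, was at 1751 and 1049 CPM (log2 0.74). Of 23 tested genes 8 were at least 1.5-fold lower and 3 higher, against 8.39% and 10.3% over all genes. Since such genes can respond to the handling of tissue, and each group is 1 preparation, handling and treatment cannot be told apart here.

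Survival and metabolism genes differed little or changed with the way cells were averaged. Cflar, an inhibitor of caspase 8, had a log2 ratio of 0.95 from summed UMIs and -0.20 by the mean of single cells. Bcl2a1b, a survival gene of the BCL2 family, gave 0.63 from summed UMIs and -0.26 at 1000 UMIs per cell. Of 12 tested survival genes 6 were at least 1.5-fold higher and 1, Bcl2, lower, against 10.3% and 8.39% over all genes. Among glycolysis genes Aldoa was at 1570 and 1712 CPM and Ldha at 1422 and 1646, and 3 of 15 (Hk1, Slc16a3 and Slc2a3) were at least 1.5-fold higher. All 18 nuclear genes of oxidative phosphorylation stayed within 1.5-fold, with a median of 0.07.

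Receptor signalling genes were level: all 22 were tested, with a median of -0.17, 0 at least 1.5-fold higher and 1 lower. Thy1, a T cell surface gene, was at 1072 and 1204 CPM. Among killer cell receptors Cd226, the activating receptor DNAM-1, was at 36.8 and 90.8 CPM (log2 -1.27) and Klrc1, which encodes NKG2A, at 252 and 380 CPM (log2 -0.59). Of 10 tested killer receptor genes these 2 were at least 1.5-fold lower and 0 higher. Over all genes 8.39% were lower and 10.3% higher, the background for both lists.

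The most extreme ratios over all genes were mostly those of single cells. Among the 8 highest, Defb45, a defensin gene, had 45 UMIs in CEP and 0 in Vehicle, all in 1 cell (at least 17.8-fold higher), and F3, the tissue factor gene, 40 and 0 UMIs, all in 1 cell (at least 15.8-fold higher). Cxcl1, a neutrophil chemokine, had 96 and 2 UMIs, 97.9% in 1 cell, and Inhba, an activin subunit, 82 and 1, 64.6% in 1 cell. The others of the 8 were Csf2, Gzmd, F10, a coagulation factor gene with 41 and 4 UMIs, and G0s2, a lipolysis inhibitor gene with 31 and 3 UMIs. A single CEP cell of 22133 UMIs held most of the UMIs of 26 of the 39 higher genes in which 1 cell held more than 50%. It had 12 Cd8a and 2 Cd8b1 UMIs and 13 of Pdcd1, with 0 of Gzmb, beside 156 UMIs of Lyz2 and 151 of Mmp12, a macrophage protease.

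Lowest in CEP, apart from Rsad2, Hspb1 and Ifit2, was Penk, which encodes proenkephalin, the precursor of enkephalin peptides. Penk was at 31.1 CPM in CEP and 179 in Vehicle, for a log2 ratio of -2.47, in 3 of 44 and 8 of 71 cells. Ehd4, an endosomal trafficking gene, was at 19.8 and 81.2 CPM, with a log2 interval from -3.45 to -0.84, in 7 and 18 cells. The other genes among the 8 lowest were Gbp2, Ms4a6c and H2-Eb1, the last an MHC class II gene of antigen-presenting cells, with 23 and 115 UMIs.

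Against the other T cells of the same library, CD8 T cells stood out by granule and cell division genes in both libraries. The T cells with no Cd8 UMI, and none of Foxp3 or Trdc, numbered 104 in CEP and 156 in Vehicle. Of 3294 genes tested, 504 (15.3%) were at least 1.5-fold higher in CD8 T cells in both libraries and 406 (12.3%) lower in both. Cd4 was found in 25 of the 104 and 36 of the 156, and a V segment in 51.0% and 63.5%, so that class is mixed. It also held more stromal RNA. All 5 tested stromal markers were lower in CD8 T cells in both libraries, with median log2 ratios of -7.13 in CEP and -9.08 in Vehicle.

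Of the 17 tested cytotoxic genes 13 were higher in both libraries, with median log2 ratios of 2.16 in CEP and 2.53 in Vehicle, against 0.14 and 0.20 over all genes. Gzmf was at 3148 CPM in CD8 T cells and 0 in the others in CEP, and at 760 and 0 in Vehicle. Gzma was at 1193 against 8.19 CPM in CEP and 1395 against 13.4 in Vehicle, and Prf1 at 277 against 2.73 and 320 against 5.02. Ifng was at 133 against 0 CPM in CEP and 334 against 11.7 in Vehicle.

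Klrc1 was at 252 against 5.46 CPM in CEP and 380 against 11.7 in Vehicle, and Nkg7 gave log2 ratios of 3.93 and 4.52. Of the inhibitory receptors, 3 lay on the same side, with log2 ratios in CEP and Vehicle of 2.62 and 4.23 for Lag3, 2.37 and 3.21 for Havcr2 and 2.39 and 2.04 for Pdcd1. Their list as a whole was mixed. Of 15 tested inhibitory and exhaustion genes 6 were higher in both libraries and 1 lower in both, with medians of 0.62 and 0.78. Of 24 tested cell division genes 22 were higher in both, with medians of 1.42 and 1.79. Klf2 was lower in CD8 T cells, with log2 ratios of -3.07 and -1.66, and 7 of 12 tested naive and memory genes were lower in both and 0 higher.

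Nfkbia was at 1332 CPM in CD8 T cells against 1662 in the other T cells in CEP, and at 597 against 1948 in Vehicle. Its CEP level in CD8 T cells was thus nearer to that of the other T cells than its Vehicle level was. That comparison class was mixed: 14 of its 104 CEP and 30 of its 156 Vehicle cells held 10 or more UMIs of S100a8 and S100a9. Among the members 4 CEP and 2 Vehicle cells did. The part of such cells in the Nfkbia levels was not tested. The genes lowest in CD8 T cells were those of neutrophil granules (Ngp, Camp, Ltf), of which 8 CEP and 15 Vehicle cells in the comparison class held 99.9%. Without these cells, a choice made after they were seen, 2979 genes were tested, 277 were higher and 324 lower in both, 11 of 17 cytotoxic and 20 of 21 cell division genes were higher, and 8 of 11 naive and memory genes lower.

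**Figure D4:**
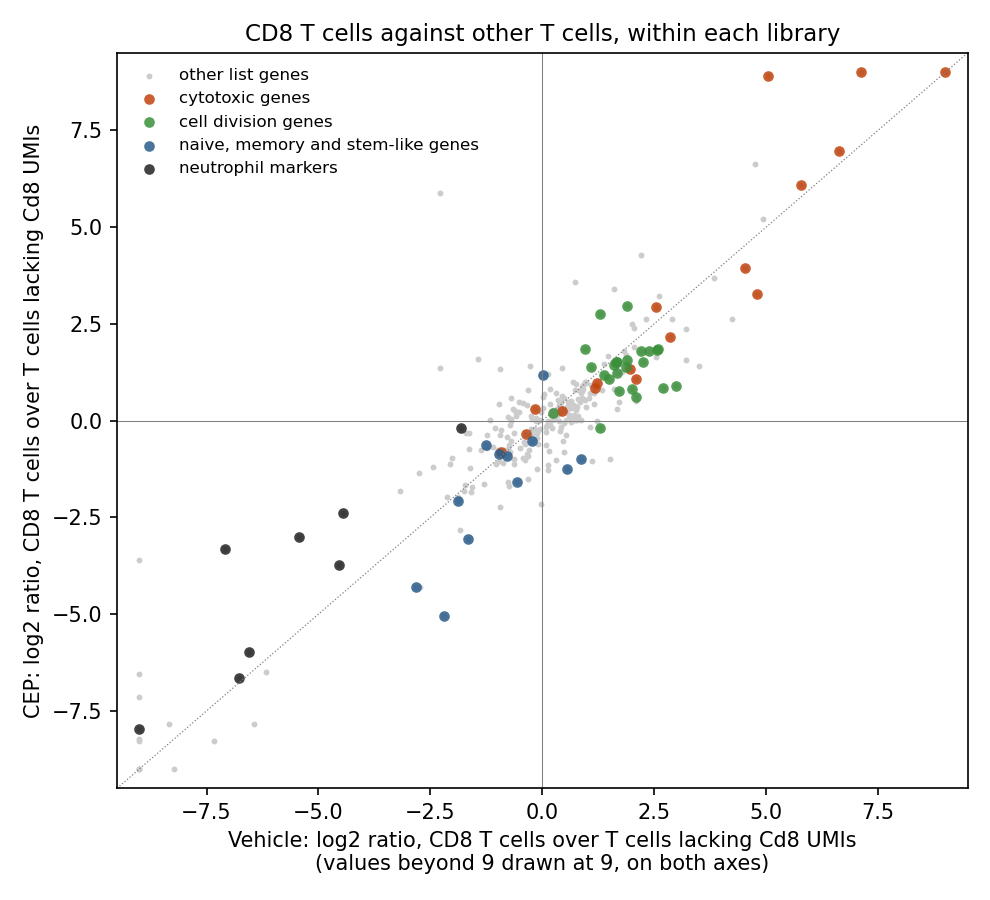
Log2 ratio of CPM of CD8 T cells over T cells with no Cd8 UMI, in Vehicle (x axis) and CEP (y axis), 1 point per tested list gene, without Cd8a and Cd8b1. Cytotoxic genes (medians 2.53 and 2.16) and cell division genes (1.79 and 1.42) lie in the upper right in both libraries, and naive and memory genes and neutrophil markers in the lower left.

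The V segments that encode the front of the receptor chains gave a second account of the members, 1 that the limits did not use. V segment UMIs numbered 364 in CEP and 514 in Vehicle. A Trbv segment was detected in 36 CEP and 55 Vehicle cells, and of those with at least 2 Trbv UMIs, 27 of 28 and 30 of 44 held 1 kind. Of 35 Trbv segments, 12 were seen in CEP and 16 in Vehicle, and of 128 Trav segments 20 and 30. The last 60 bases of the coding exon of the 5 Trbv segments whose shares differed by most percentage points are shown, with the codon of the conserved cysteine that opens the hypervariable junction in capitals (GENCODE M21, GRCm38, plus strand, 5′ to 3′). These are the germline sequences, not those of a cell.
Trbv1, chr6:40891826-40891885: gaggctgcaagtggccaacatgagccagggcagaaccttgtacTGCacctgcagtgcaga
Trbv13-1, chr6:41116409-41116468: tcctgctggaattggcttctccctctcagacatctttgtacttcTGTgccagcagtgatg
Trbv13-3, chr6:41130526-41130585: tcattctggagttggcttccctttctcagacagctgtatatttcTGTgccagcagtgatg
Trbv17, chr6:41163497-41163556: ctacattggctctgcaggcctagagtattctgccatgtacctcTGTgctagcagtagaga
Trbv19, chr6:41178989-41179048: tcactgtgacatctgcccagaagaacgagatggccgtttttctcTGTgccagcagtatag

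Trbv1 led in 8 of the 36 CEP cells, 22.2% (10.1% to 39.2%), and in 2 of the 55 Vehicle cells, 3.64% (0.443% to 12.5%). Trbv17 led in 7 Vehicle cells, 12.7% (5.27% to 24.5%), and in 0 CEP cells, where 3 cells of the total would be 8.33% and the exact interval reaches 9.74%. Trbv13-3 led in 3 and 11 cells (8.33% and 20.0%), and Trbv19 in 2 and 9 (5.56% and 16.4%). Trbv13-1 led in 6 and 3 cells (16.7% and 5.45%). The intervals of the groups overlap for all 5 segments, and since cells of 1 clone share their segment and cells cannot be traced to animals, cells are not independent draws. Trbv13-3 and Trbv13-2 were 90.6% identical, so their split is uncertain.

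**Figure D5:**
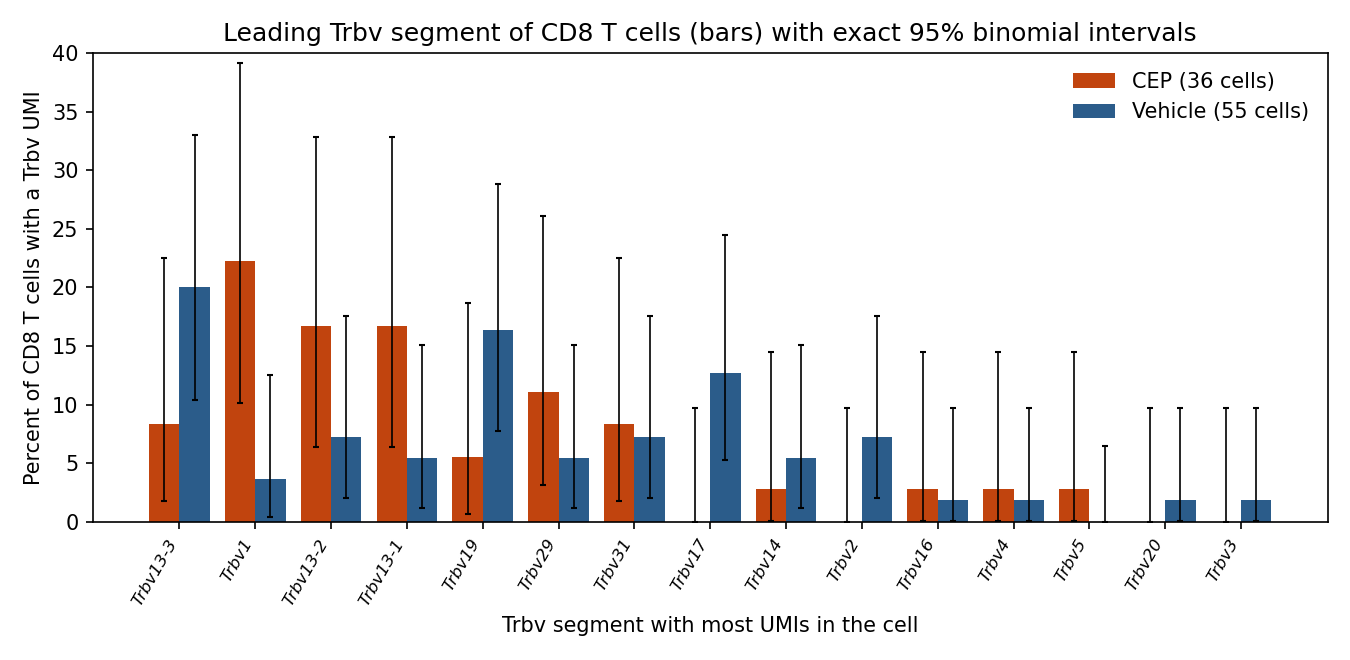
Percent of CD8 T cells with a Trbv UMI (36 CEP and 55 Vehicle cells) in which each Trbv segment had most UMIs, as bars from 0 with exact 95% binomial intervals that cover counting error only. Trbv1 (22.2%) leads in CEP and Trbv13-3 (20.0%) in Vehicle, with overlapping intervals.

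A leading Trbv and a leading Trav segment could both be named in 20 CEP and 30 Vehicle cells, which held 39 different pairs. Of these, 7 pairs occurred in more than 1 cell, covering 6 CEP and 12 Vehicle cells, and 3 of the 7 occurred in both libraries. The pair Trbv31 with Trav7-3 was in 1 CEP cell (26195 UMIs) and 2 Vehicle cells (28151 and 7825 UMIs), and all 3 were granzyme cells. The CEP cell held 163 Gzmb, 544 Gzmc, 293 Gzmd and 603 Gzmf UMIs, and it was the cell with the largest part of the CEP granzyme C to G sum. The deeper Vehicle cell of the pair held 210 Gzmb, 36 Gzmc, 0 Gzmd and 47 Gzmf UMIs, so at similar depth and Gzmb it had far fewer of the others.

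The pair Trbv1 with Trav16d-dv11 was in 3 CEP cells, among them the cell of 22133 UMIs with the macrophage genes. Trbv17 with Trav6-1 and Trbv19 with Trav3-3 were each in 3 Vehicle cells. A shared pair of V segments does not make a clone, since the junction between them was not read.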

How the data were processed

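Per the labels' protocols, some 30000 cells a sample went onto a droplet platform with a version 3 kit for RNA 3′ ends. The deposited matrices hold raw counts, whole UMIs per gene and barcode over 32285 genes, and per the submitters' processing notes they were made on mm10 with Cell Ranger 5.0.1, whereas the file headers name 7.1.0; the counting of intronic reads is not stated in the sources used here. The authors' cell calling left 9621 CEP and 9989 Vehicle barcodes. The Vehicle group is labelled "Vehide".

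UMIs were summed over the member cells of each library and divided by their total (CPM). A ratio used a pseudocount of 0.5 UMIs, with an exact conditional binomial interval; shares have exact Clopper-Pearson intervals and sums exact Poisson intervals, all at 95%. Genes with at least 30 UMIs over both libraries were compared, and one counted as higher or lower past 1.5-fold. The 20 gene lists and 14 marker lists, the members and the named genes were chosen with earlier results of these data known. The text names the genes of the limits, the protein kinase C, NF-kB and PARP list, and in each other list up to 5 members past 1.5-fold with an interval excluding 1 plus the 2 with the highest level. It also names the 8 highest and 8 lowest ratios of all genes, the 10 highest against T cells without Cd8 UMIs, and the genes whose shares of cells are given. Genes named beyond this rule, such as Junb, Slc2a3 and Slamf6, were chosen after their values were seen. No replicate pairing exists. Doublets were kept; leaving out the highest 8% of Scrublet-type scores (2 CEP and 0 Vehicle members) was an alternative. Matrices were handled with scanpy 1.11.5 and pandas 2.3.3, intervals were computed with scipy 1.17.1 and numpy 2.4.6, and plots were drawn with matplotlib 3.10.9 (Python 3.11.15). 1 gene of the interferon-gamma list is not reported here and was left out of it. The counting script was tested on simulated data. Coordinates are from GENCODE M21 on GRCm38.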

Additional observations from a re-analysis of the deposited data

How the results depend on the processing

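No paired analysis was possible because each group is 1 library and the result comes from no test. With no replicates, no replicate could be left out. The share of CD8 T cells among kept barcodes kept its direction under every alternative run. Its log2 ratio was -0.63 and moved to -1.30 with the Cd3 and Cd8 limits applied at 1000 UMIs per cell. The numbers of genes at least 1.5-fold higher and lower in CEP, 365 and 296, became 557 and 449 by the mean of single cells, 1046 and 812 at 1000 UMIs per cell, 83 and 67 in members without myeloid UMIs, 134 and 99 with at least 60 UMIs, 1113 and 1024 with at least 10, and 116 and 81 past 2-fold. Of the list medians, that of effector cytokines (0.69) turned to -0.17 without doublet-marked cells, -0.0021 by the mean of single cells, -0.12 at 1000 UMIs, -0.067 without the top cells and -0.69 without myeloid UMIs; that of inhibitory genes turned to -0.42 without myeloid UMIs. Genes higher in CD8 T cells than in T cells without Cd8 UMIs fell from 504 to 277 without the 8 CEP and 15 Vehicle neutrophil-granule cells, an alternative chosen after seeing the data. The causes were not tested.

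Of the values of named genes under the alternatives 1219 moved by less than counting error, 123 moved more and 25 changed sign; genes with at most 3 UMIs in each library, and lists with fewer than 3 tested genes, gave no value. Without doublet-marked cells Ccl4 was at -1.08 and Tnf at -0.19. By the mean of single cells Cflar was at -0.20 and Nfkb1 at -0.29. At 1000 UMIs per cell Bcl2a1b was at -0.26, Ccl4 at -0.051, Cd44 at -1.04, Hk1 at -0.17, Nfkb1 at -0.51, Runx3 at -0.55 and Ube2c at -0.11. Without the top cells Ccl4 was at -0.54. In the 9 and 19 members without myeloid UMIs Bcl2a1b was at -0.056, Ccl4 at -0.90, Ccr7 at -1.36, Cd44 at -0.64, Cflar at -1.66, Csf2 at -3.05, Hk1 at -0.33, Nfkb1 at -0.39, Nfkb2 at -0.33, Slc16a3 at -0.69, Hspa1a at 1.33, Hspa1b at 1.85 and Isg15 at 0.28 (all log2 ratios).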

Other observations

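In 3 Vehicle CD8 T cells Trbv17 and Trbv14 were found together, with 12 and 9, 23 and 11, and 12 and 9 UMIs. V segments had more UMIs than the receptor constant genes in the members, 364 against 257 in CEP and 514 against 265 in Vehicle, although the labels name a kit that reads RNA from the 3′ end.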
